A study of Papio hamadryas with 11 samples.

Results

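Genes that mark bile duct cells and liver progenitors were examined in baboon (Papio hamadryas) fetal livers taken near term and measured on human Illumina expression BeadChips with 1 array per fetus. The genes were KRT7, KRT8, KRT18, KRT19, SOX9, EPCAM, SPP1, CFTR and CLDN4, chosen by name, 9 of the 18852 genes with a symbol in the platform annotation. They had 12 probes, and a probe was taken as measured where its detection p, the chance of such a signal from negative control beads, lay under 0.05 on 4 or more arrays. Only 1 probe met this, a probe of EPCAM, so most of what follows concerns EPCAM. All fetuses were at 165 days, or 0.9 of gestation. The control group was 6 fetuses of control mothers (CON1 to CON6, of which CON1 to CON3 were female), and the other group was 5 fetuses of obese mothers (MO1 to MO5, of which MO1 to MO3 were female), called maternal obese. How the mothers were made obese or fed is not given in the sources used here.

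Cholangiocytes are the epithelial cells that line bile ducts. In the fetal liver they arise from hepatoblasts, bipotent progenitors, which form a ductal plate around the portal veins under Notch signalling while other hepatoblasts become hepatocytes. Keratins are filament proteins that work in pairs of a type I and a type II chain. KRT8 and KRT18 form the filaments of hepatocytes, and bile duct cells add KRT7 and KRT19. SOX9 is a transcription factor of the ductal plate, EPCAM an adhesion molecule of duct and progenitor cells, SPP1 (osteopontin) a secreted matrix protein, CFTR the chloride channel of the duct's apical membrane and CLDN4 a tight junction protein.

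The arrays lay on 2 slides. The first 4 controls shared slide 1. CON5 and CON6 shared slide 2 with the 5 maternal obese arrays, so no maternal obese liver was on slide 1. Between 10131 and 13065 of the 48803 probes were detected per array. The intensity at which the detection p reached 0.05 was 76.5 to 82.8 on slide 1 and 93.9 to 115.7 on slide 2. Under the rule used for the 9 genes, 44.3% of all annotated genes (8357 of 18852) had a measured probe, and 12065 probes were tested together.

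**Figure D1:**
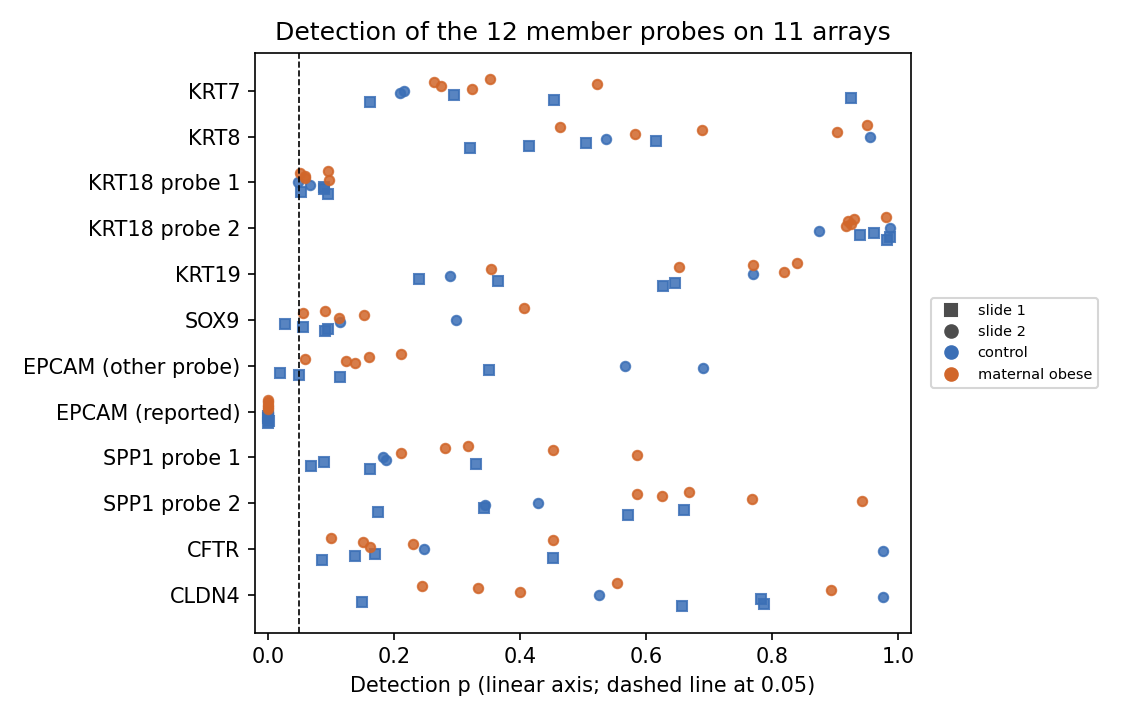
Detection p of each member probe (horizontal axis, linear) on each of the 11 arrays, with control arrays in blue, maternal obese arrays in orange, squares for slide 1 and circles for slide 2. The reported EPCAM probe sits at 0.00264 or lower on every array, while the other 11 probes lie to the right of the dashed line at 0.05 except for 3 single points.

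The keratins were not measured. The 1 probe of KRT8 read between 54.7 and 70.1 intensity units over the 11 arrays, with detection p from 0.320 to 0.955. KRT18, its filament partner, had a pair of probes at opposite ends of the background range. The first (ILMN_1730848) read 71.7 to 76.2 on slide 1 and 84.4 to 118 on slide 2, and its detection p ran only from 0.0474 to 0.0975, so it was close to the threshold on every array and passed it on CON6 alone. The other (ILMN_1803408) read 47.3 to 59.4, with detection p from 0.875 to 0.988. It was dimmer than most negative controls everywhere. KRT7 read 51.0 to 85 (detection p 0.162 to 0.925) and KRT19 56.6 to 73.7 (detection p 0.240 to 0.839), so neither bile duct keratin was detected on any array.

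The other duct and progenitor genes were also at background. SOX9 read 67.1 to 93.7 and passed the threshold on CON4 alone (detection p 0.0277), with a median detection p of 0.0949. The pair of SPP1 probes read 61.8 to 87.8 and 56.5 to 76.1 and passed on no array. CFTR read 54.1 to 83.4 (lowest detection p 0.0856) and CLDN4 54.0 to 77.1 (lowest detection p 0.149). In all, 3 of 121 readings of the 11 unreported probes had a detection p under 0.05, and their intensities were 0.714 to 1.47 times the array median. The first KRT18 probe was brighter on slide 2, where the background was higher too. A detection p under 0.1 in place of 0.05 would have added the first KRT18 probe (11 arrays) and SOX9 (6 arrays). Because every maternal obese array and nearly every control array was below the threshold for these 8 genes, no fold change is given for them.

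Non-detection on this platform is not the same as absence of the transcript. KRT8 and KRT18 are background knowledge for hepatocytes, and hepatocyte transcripts were bright here: TTR, the transthyretin carrier protein, had a mean level of 14.61 on the log2 scale, the highest of 11 measured hepatocyte markers among 14 annotated. The hepatocyte iron carrier transferrin (TF) has 1 probe, which read 58.7 to 127 and passed on 4 of 5 maternal obese arrays and 0 of 6 control arrays, although transferrin is known as an abundant liver transcript. The probes were designed on human sequence. Whether mismatches to baboon transcripts lowered the signals was not tested. In bulk liver, fewer cells of a type and less RNA per cell cannot be told apart.

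EPCAM, a homophilic adhesion molecule of epithelia, was detected on every array by 1 of its probes (ILMN_2160210), with a detection p of 0.00264 on CON2 and 0 on the other 10. In control livers its intensity had a lowest value of 183 (CON2), a median of 446 and a highest value of 1777 (CON4). In maternal obese livers it read 493.3 (MO1), 306 (MO2), 1490 (MO3), 720 (MO4) and 348 (MO5). The conditions overlapped over almost their whole range, with the 3 brightest arrays being CON4, MO3 and CON6 and the 3 dimmest CON2, CON5 and MO2. Each fetus had 1 array, so whether neighbours in this order differ beyond measurement error cannot be judged.

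**Figure D2:**
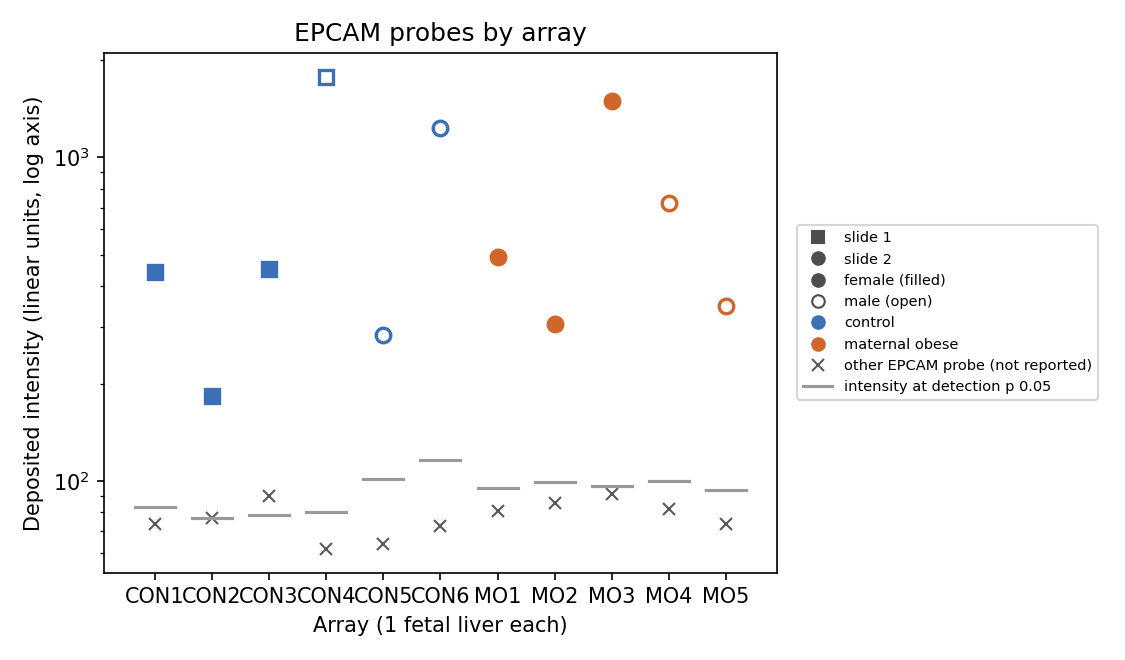
EPCAM intensity on each array (vertical axis, log scale), with control arrays in blue and maternal obese in orange, squares for slide 1, circles for slide 2, filled for females and open for males. The reported probe spans 183 to 1777 in controls and 306 to 1490 in maternal obese livers. The crosses are the other EPCAM probe, which lies at or below the grey bars, each array's intensity at a detection p of 0.05, except on CON3.

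The spread of EPCAM between fetuses was wide. Its brightest array read 9.70 times its dimmest, or 8.33 times after background correction and quantile normalization (levels from here on are log2 values on that scale). Its residual SD within conditions was 1.12 log2 units, against a median of 0.26 over the 12065 probes tested, and 103 of them (0.854%) had a larger one. Among 1109 probes with a mean level within 0.5 log2 units of that of EPCAM (8.91), 11 (0.992%) had a larger SD. The spread was present within each condition, within each sex and on each slide: the SD was 1.28 on slide 1 (n = 4) and 1.03 on slide 2 (n = 7), and 1.0 in females (n = 6) and 1.17 in males (n = 5).

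The other probe annotated to EPCAM (ILMN_2160209) did not show this. It read 61.6 to 90.8 over the 11 arrays and passed the threshold on CON3 alone (detection p 0.0198). Its readings are at background and are not ranked between arrays. A dim second probe was common on this platform: of 2590 genes with several probes and at least 1 probe detected on all 11 arrays, 1944 (75.1%) also had a probe detected on fewer than 4. The EPCAM level and its spread therefore rest on a single probe.

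Whether EPCAM differed with maternal obesity was the question the design poses for it. EPCAM had a mean level of 8.82 ± 1.20 (SD, n = 6) across controls and 9.02 ± 1.01 (SD, n = 5) with maternal obesity. The difference was 0.20 (SE 0.57), with a 95% interval of -1.04 to 1.43, or 0.488-fold to 2.70-fold, and a limma adjusted p of 0.890. An exact two-sided permutation test over all splits of the arrays gave p = 0.766. The interval covers a fall by more than 2-fold as well as a rise by more than 2-fold, and these arrays cannot tell these apart. Of the 12065 probes, limma called 0 (0%) between the conditions, with 1576 (13.1%) at an unadjusted p under 0.05, so the lack of a call for EPCAM sets it apart from no other gene. The small difference changed sign without CON2 (-0.06), CON5 (-0.02) or MO3 (-0.14) and with median scaling (-0.01).

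EPCAM was also compared between the slides and within them. The slide 2 controls CON5 and CON6 lay at 7.75 and 9.87, inside the range of the slide 1 controls, which was 7.54 to 10.60. The difference of slide 2 minus slide 1 was -0.02 (SE 0.85, 95% interval -1.88 to 1.84, limma adjusted p = 0.990). Between the slides limma called 9.82% of all probes (1185, 370 higher and 815 lower on slide 2), and EPCAM was not among them. That count fell to 90 without CON6, 286 without CON5 and 696 without CON3. The direction for EPCAM rested on single controls, at -1.09 without CON6, 1.04 without CON5 and 0.57 without CON4. Within slide 2 the 5 maternal obese livers exceeded the 2 controls by 0.21 (exact permutation p = 0.857, where 0.0476 is the smallest that 21 splits allow). The fit with slide as a covariate gave 0.21 too (SE 0.82, limma adjusted p = 0.970), which is fixed by the design, since slide 1 held controls only. In that fit limma called 0.00829% of all probes (1).

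EPCAM was compared between the sexes next. Females averaged 8.65 ± 1.0 (SD, n = 6) and males 9.23 ± 1.17 (SD, n = 5). The difference of female minus male, with condition as a covariate, was -0.60 (SE 0.57, 95% interval -1.84 to 0.64, limma adjusted p = 0.71), and 0.0332% of probes (4) were called. Without CON4, the brightest array and a male, it was -0.24. In the maternal obese livers alone it was 0.10.

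Among females, the 3 control livers read 7.54 to 8.73 and the 3 maternal obese livers 7.84 to 10.38. Among males the 3 controls read 7.75 to 10.60 and the 2 maternal obese livers 8.33 and 9.60. The groups overlapped in each sex. The contrast of maternal obese minus control was 0.82 (SE 0.75) in females and -0.44 (SE 0.84) in males, with limma adjusted p-values of 0.645 and 0.874. All 3 control females were on slide 1 and all 3 maternal obese females on slide 2, so condition and slide cannot be told apart in females. The interaction, the first contrast minus the second, was 1.26 (SE 1.13, limma adjusted p = 0.843), and limma called 0 (0%) of the probes in it, with 909 at an unadjusted p under 0.05. Without MO3 it was 0.60. With slide as a covariate it was 2.45 (SE 1.27, limma adjusted p = 0.524), where the slide term rests on the control males, with CON4 alone on slide 1.

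**Figure D3:**
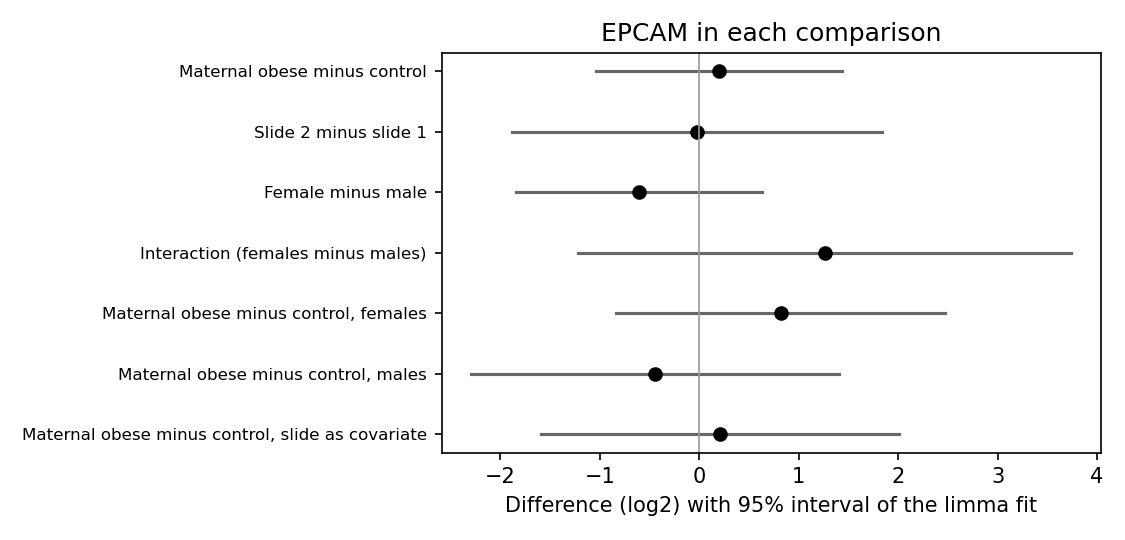
EPCAM differences on the log2 scale (points) with 95% intervals of the limma fits (lines), for the 4 comparisons and for maternal obese minus control within females, within males and with slide as a covariate. Every interval crosses 0, and the one for maternal obese minus control runs from -1.04 to 1.43.

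The named genes whose pattern over the 11 arrays was most like that of EPCAM were SLC15A4, a lysosomal histidine and peptide transporter (Pearson r 0.85, Spearman rho 0.85), TTC14 (r 0.82, rho 0.89) and ZNF839 (r 0.80, rho 0.82). After slide means were subtracted they were SLC15A4 (r 0.88), ZNF839 (r 0.87) and BECN1, a core autophagy protein (r 0.87). These are the highest among 9803 named probes over the same arrays and are given as a description. Their own ranges were small, 1.28-fold to 1.47-fold between the lowest and highest array, where EPCAM spanned 8.33-fold. None of them is a duct or progenitor marker in the lists used here.

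**Figure D4:**
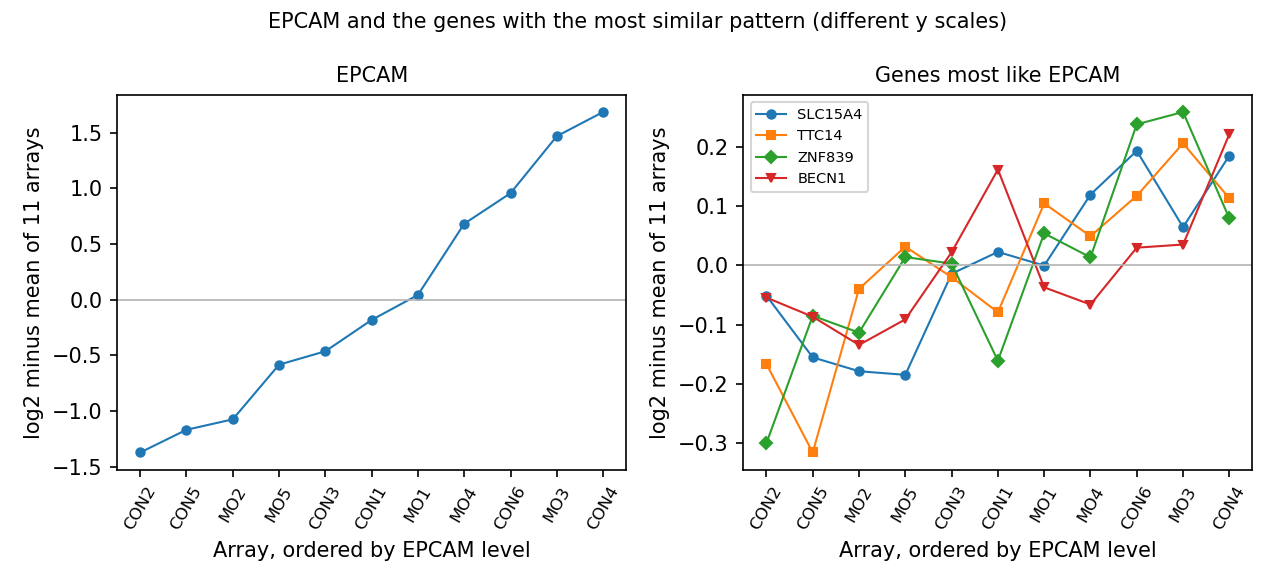
Levels minus each gene's mean over 11 arrays (log2), with arrays ordered by EPCAM. EPCAM (left) spans 8.33-fold and its most similar genes (right, on a narrower vertical scale) span 1.28-fold to 1.47-fold.

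The level of EPCAM was set against the mean score of each of 16 gene lists and against 2 array measures, chosen after the data were seen. None of the 18 relations passed after adjustment. The smallest raw p belonged to other keratins (r = -0.61, permutation p = 0.0457, adjusted p = 0.595 and rho = -0.49, permutation p = 0.131, adjusted p = 0.882, n = 11). That r was -0.25 without CON2 and CON4, the 2 arrays farthest from the median, and -0.34 within slide 2. Endothelial markers followed (r = -0.58, permutation p = 0.0661, adjusted p = 0.595 and rho = -0.53, permutation p = 0.103, adjusted p = 0.882, n = 11), with r = -0.64 without MO4 and CON1 and r = -0.66 within slide 2. The score of 16 other cholangiocyte markers had r = 0.34 with EPCAM (permutation p = 0.313, adjusted p = 0.995 and rho = 0.18, permutation p = 0.598, adjusted p = 0.882, n = 11), which was -0.32 without CON4 and MO2 and 0.21 within slide 2. The number of detected probes had r = 0.03 and the median intensity r = 0.15 (permutation p = 0.925 and 0.655, adjusted p = 0.995 for each, rho -0.10 and 0.16), with -0.59 and -0.32 without the 2 farthest arrays and -0.55 and 0.18 within slide 2.

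With 8 of the 9 genes unmeasured, other genes of bile ducts, progenitors and keratin filaments were read from 7 lists. Of 158 genes in them, 145 had an annotated probe and 80 were measured. By limma 0 of the 80 passed over all genes between the conditions (smallest adjusted p = 0.277). At an unadjusted p under 0.05 there were 12 (15%), 4 higher and 8 lower in maternal obese livers, beside 13.1% of all probes, and their median difference was 0.01 beside 0.04 over all probes. The share is near that of all genes.

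Genes of the list of biliary transcription factors and Notch were mostly measured, 14 of 17 annotated, and 12 of them on all 11 arrays. Which cells of the bulk liver carried these transcripts was not tested. FOXA1, a pioneer factor of liver development, had the highest mean, at 9.64 ± 0.18 (SD, n = 6) across controls and 9.72 ± 0.35 (SD, n = 5) with maternal obesity. ONECUT1, the HNF6 factor that acts in duct formation, had the smallest p, at 8.24 ± 0.85 and 8.83 ± 0.42, a difference of 0.59 (SE 0.36, limma adjusted p = 0.464). That difference was 0.81 with slide as a covariate. The receptor NOTCH1 was next at 0.24 (SE 0.16, limma adjusted p = 0.486), and at 0.11 with slide as a covariate. None of the 14 had an unadjusted p under 0.05, and their median difference was 0.08. The Notch receptor NOTCH2, known for its part in duct formation, was detected on no array by any of its 3 probes.

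Other cholangiocyte markers had 16 of 39 annotated genes measured. Whether duct cells or other liver cells carried these transcripts was not tested. DEFB1, an epithelial antimicrobial peptide, was the brightest at 12.68 ± 0.14 (SD, n = 6) across controls and 12.26 ± 0.39 (SD, n = 5) with maternal obesity. The median difference of the 16 was -0.25, and 5 of them had an unadjusted p under 0.05, all lower, where 4.8% of all probes were lower at that p. Those 5 were CLDN7, DEFB1, PERP, ITGA6 and TM4SF4, of which PERP, ITGA6 and TM4SF4 are named after their values were seen. ITGA6 was measured only through controls, so its place among the lower genes was favoured by the detection filter. PERP was detected on 4 control and 2 maternal obese arrays, so the same holds in part for it. The lists were also chosen with earlier results of these data known. The count of 5 beside the share of all probes is therefore a description and no test of the list. With slide as a covariate the median of the list was -0.00, which rests on CON5 and CON6 as the controls.

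CLDN7, a claudin of epithelial junctions that binds EPCAM in other tissues, had the smallest p of the 7 lists. In controls its lowest level was 6.74, its median 6.93 and its highest 7.15. The maternal obese livers read 6.76 (MO1), 6.03 (MO2), 6.33 (MO3), 6.38 (MO4) and 5.59 (MO5). Of them MO1 alone lay within the control range. The difference was -0.72 (SE 0.18, limma adjusted p = 0.277), and it was -0.72 with slide as a covariate (limma adjusted p = 0.589). DEFB1 was at -0.42 (SE 0.16, limma adjusted p = 0.364) and at -0.51 with slide. Neither passed under any of the alternatives run.

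PERP, a desmosomal membrane protein, and TM4SF4, a tetraspanin-like protein of liver and gut epithelia, behaved otherwise. PERP was at -0.90 (SE 0.38, limma adjusted p = 0.364) between the conditions and TM4SF4 at -1.13 (SE 0.50, limma adjusted p = 0.371). Adding slide to the fit turned them to 0.23 each. Both were lower in the controls of slide 2. PERP read 6.26 to 7.10 on slide 1, 5.08 on CON5 and 4.92 on CON6, and 4.82 to 5.68 in maternal obese livers. It passed detection on 4 control and 2 maternal obese arrays. Its low readings therefore lie near background, and the size of its differences is uncertain. TM4SF4 read 7.53 to 9.28 on slide 1, 6.14 and 6.57 on CON5 and CON6, and 5.80 to 7.06 in maternal obese livers. ITGA6, the laminin receptor subunit alpha 6, passed detection on 0 of 5 maternal obese arrays and 4 of 6 control arrays. With the dimmest detected signal per array standing for the undetected maternal obese readings, the mean of the 6 controls was 1.08-fold higher. That is no strict lower bound, since 2 of the controls were undetected and kept their background readings. ITGA6 was also measured only through controls, which favours this direction. Its fitted difference was -0.34 (limma adjusted p = 0.369), -0.08 with slide as a covariate and 0.05 with slide and sex, so it does not hold apart from slide.

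Between the slides, limma called 5 of the 80 genes (6.25%, beside 9.82% of all probes). The laminin chain LAMB3 was higher on slide 2 at 0.67 (SE 0.13, limma adjusted p = 0.0117). Lower on slide 2 were PERP at -1.71 (SE 0.27, limma adjusted p = 0.00446), with low readings near background, and TM4SF4 at -2.04 (SE 0.45, limma adjusted p = 0.0165). So were the TEAD family factor TEAD2 at -1.19 (SE 0.19, limma adjusted p = 0.00468) and the surface protein IGDCC4 at -0.59 (SE 0.15, limma adjusted p = 0.0271). These differences rest on the controls. IGDCC4 read 10.37 to 10.50 on slide 1, 9.90 on CON5 and 9.80 on CON6. The maternal obese livers, all on slide 2, read 10.21 to 10.65 for IGDCC4. MO1 (10.24), MO3 (10.34) and MO4 (10.21) lay below the slide 1 range, MO5 (10.37) at its lower end and MO2 (10.65) above it. Without CON6 all 5 calls were lost, and without CON5 those of LAMB3, TM4SF4 and IGDCC4. Removing CON1 or CON3 ended the call of IGDCC4 too. With sex as a further covariate PERP and TEAD2 stayed called, and the other 3 did not. Slide and sex are entangled in the controls, since CON5 and CON6 are male and 3 of the 4 on slide 1 female.

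**Figure D5:**
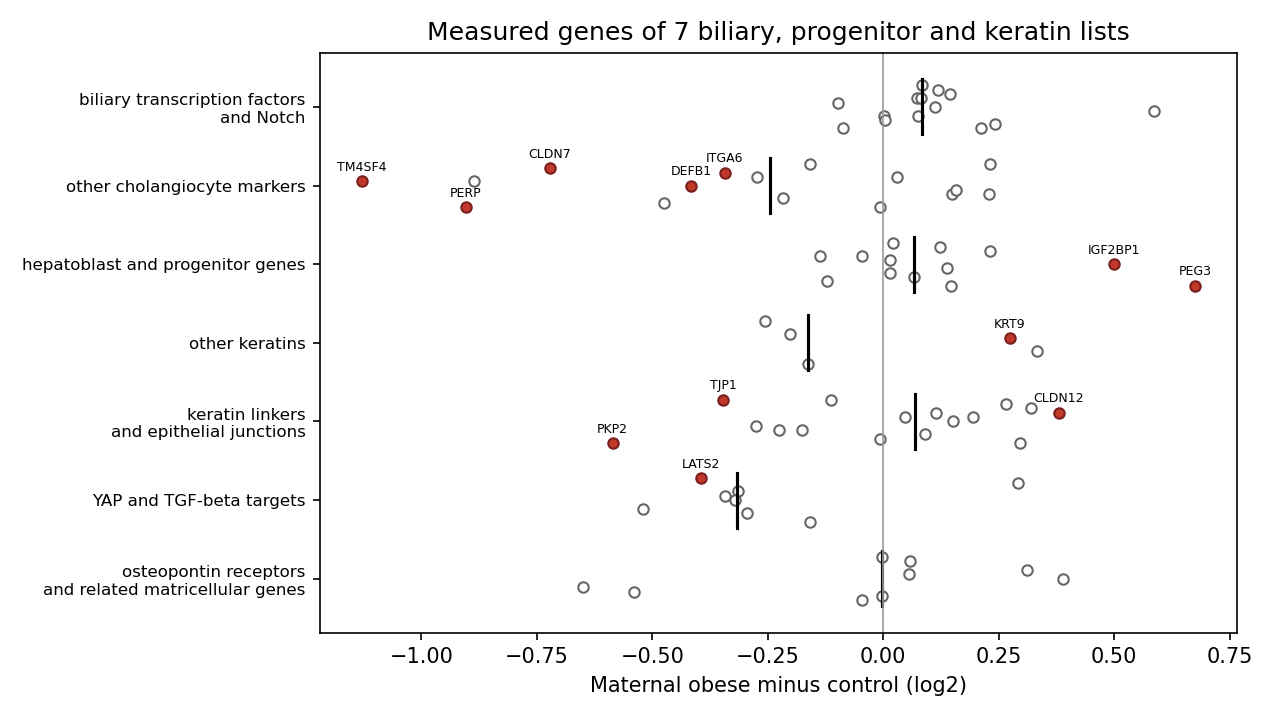
Maternal obese minus control differences (log2, horizontal axis) of the measured genes of 7 lists, 1 point per gene, with the list median as a black bar. Filled and labelled points have an unadjusted limma p under 0.05, and no gene passed after adjustment. The 5 labelled cholangiocyte markers all lie below 0, with TM4SF4 lowest at -1.13.

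Hepatoblast and progenitor genes ranged in mean level from 5.38, near background, to 14.52. H19, an imprinted fetal RNA, had the highest mean at 14.51 ± 0.11 (SD, n = 6) across controls and 14.52 ± 0.14 (SD, n = 5) with maternal obesity. Of 20 annotated genes 13 were measured, 11 of them on all 11 arrays, with a median difference of 0.07. PEG3, an imprinted growth gene, was at 0.67 (SE 0.26, limma adjusted p = 0.363) and IGF2BP1, a fetal RNA-binding protein, at 0.50 (SE 0.18, limma adjusted p = 0.356). With slide as a covariate PEG3 was at 0.56 and IGF2BP1 at 0.09. The alpha-fetoprotein gene AFP was at 9.94 ± 0.62 and 10.09 ± 0.71, and the hepatoblast surface protein DLK1 at 12.28 ± 0.41 and 12.31 ± 0.69 (SD, n = 6 and 5).

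Of 16 other keratin genes annotated, 5 were measured. KRT10 was the brightest, at 10.06 ± 0.14 (SD, n = 6) across controls and 9.90 ± 0.18 (SD, n = 5) with maternal obesity. KRT9 was at 0.27 (SE 0.10, limma adjusted p = 0.358) and at 0.21 with slide as a covariate. KRT3 was at 0.33 (SE 0.17, limma adjusted p = 0.406) and at 0.03 with slide. These keratins are known mainly from skin and cornea, and keratin probes may bind related chains, so their values are uncertain.

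Junction and keratin-linker genes had 16 of 24 annotated genes measured and a median difference of 0.07. The adherens junction protein CTNNA1 was the brightest, at 10.14 ± 0.19 (SD, n = 6) and 10.03 ± 0.26 (SD, n = 5). PKP2, a desmosomal plaque protein, was at -0.59 (SE 0.18, limma adjusted p = 0.315) and at -0.83 with slide as a covariate. TJP1, the tight junction scaffold ZO-1, was at -0.35 (SE 0.15, limma adjusted p = 0.367) and at -0.10 with slide. CLDN12, named after its value was seen, was at 0.38 (SE 0.17, limma adjusted p = 0.369).

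Hippo and TGF-beta genes had 8 of 18 annotated genes measured, with a median of -0.32 and 7 of 8 below 0, and a median of 0.09 with slide as a covariate. The kinase LATS2 was at -0.39 (SE 0.15, limma adjusted p = 0.363) and at -0.56 with slide. TEAD4 was at -0.30 (SE 0.16, limma adjusted p = 0.421) and at -0.30 with slide too. The receptor TGFBR2, the brightest, was at 9.26 ± 0.41 (SD, n = 6) and 8.94 ± 0.36 (SD, n = 5). Osteopontin's integrin receptors and related matrix genes had 9 of 13 measured and a median of -0.00. ITGAV was at -0.65 (SE 0.30, limma adjusted p = 0.384) and at 0.05 with slide, ITGA5 at 0.31 (SE 0.18, limma adjusted p = 0.437) and at 0.12 with slide, and ITGB5 was the brightest at 10.21 ± 0.12 and 10.26 ± 0.26 (SD, n = 6 and 5).

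Markers of other cells that a liver piece can hold were measured to different extents. Mesothelial cells, which also carry simple keratins, had 2 of 8 annotated markers measured, UPK3B the brighter, and MSLN was detected on no array. Stellate and smooth muscle markers had 9 of 12 measured (DCN brightest), endothelial 8 of 10 (FCN3), Kupffer cell 9 of 10 (CD14), erythroid 4 of 7 (HBG2), neutrophil 6 of 9 (S100A9), T and NK cell 4 of 9 (IL7R), B cell 5 of 7 (IGLL1) and megakaryocyte 0 of 4. By limma 0 genes of these lists or of the hepatocyte list were called between the conditions. The median maternal obese minus control difference was -0.25 over the Kupffer cell markers (0 above 0 and 9 below), -0.58 over the B cell markers (1 above and 4 below) and 0.38 over the stellate and smooth muscle markers (9 above and 0 below). It was 0.04 over all probes. Genes of a list were read in the same livers, so these counts are a description and no test. The Kupffer cell scores overlapped, at -0.29 to 0.64 in controls and -0.53 to 0.20 in maternal obese livers. The median was -0.09 for hepatocyte, 0.26 for mesothelial, 0.08 for endothelial, 0.18 for erythroid, -0.08 for neutrophil and 0.10 for T and NK cell markers. With slide as a covariate these medians were, in the same order, 0.21, 0.02, 0.10, -0.13, -0.22 and 0.01. Those of the Kupffer cell, B cell and stellate and smooth muscle markers were then -0.35, -0.54 and 0.35. Between the slides, limma called 3 of 11 hepatocyte and 1 of 9 Kupffer cell markers, all lower on slide 2, beside 9.82% of all probes. The part of these cells in the differences of the biliary lists was not tested. Their part in the level of EPCAM was read only through the list scores above. Of those scores, the one of stellate and smooth muscle markers was highest on MO2, at 2.18. The other maternal obese livers scored -0.45 to 0.17 on it, within the control range of -0.71 to 0.41. How far MO2 alone set the median of 0.38 for that list was not tested.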

How the data were processed

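RNA of 11 fetal livers was made into cRNA with Illumina's Total Prep 96 kit, as the labels' protocols say. For each array the deposited values were an intensity per probe, not logged, and its detection p-value. GenomeStudio and Partek are named, without roles, in the submitters' processing notes. The deposited series matrix equals the log2 of those intensities to within 5.00e-09, so it was not normalized between arrays. Slides came from the array names in the labels.

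limma 3.58.1 (R 4.3.3) neqc, offset 16, corrected background and quantile-normalized. Probes detected on 4 or more arrays (12065) were fitted with lmFit and eBayes, Benjamini-Hochberg adjusted, threshold 0.05. Sex and slide fits had condition as a covariate. SE is limma's moderated standard error. List genes were read from their brightest measured probe. Named from each biliary list were the 2 smallest p and the highest mean, from other cell lists the highest mean, and the 3 genes most like EPCAM. Further list genes, named after their values were seen, are PERP, TM4SF4, ITGA6, CLDN12, LAMB3, IGDCC4, TEAD2, AFP, DLK1, NOTCH2, MSLN and TF. In simulated data of maternal obese minus control over 12065 probes, 80 of 100 shifts of 1 log2 unit and 99 of 100 of 2 were recovered, with 7 false calls. Recovery was not tested apart for EPCAM, whose residual SD was 1.12, against a median of 0.26 over those probes. The genes and lists were chosen with earlier results of these data known. Alternatives covered normalization, filter, slide, sex, weights and each array left out. The 3 planned pairs of members were not correlated, since no pair had both genes measured. The labels number no replicates, and the numbers used here only name arrays. Each limma p sets a difference against the spread between these arrays, moderated over the probes tested. Each permutation p counts rearrangements of the arrays. The small number of arrays sets the precision.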

Additional observations from a re-analysis of the deposited data

Results flagged for a closer look

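Of 60 groups of arrays checked for an array far from the others, 3 stood out, where chance gives about 1 in 20, which for 60 groups is also 3. No EPCAM value was among them. H19 was lowest on CON6, at 14.30, where the other 5 controls read 14.50 to 14.62. LATS2 was lowest on MO1, at 5.52, where the other 4 maternal obese livers read 5.84 to 5.96. TEAD2 was highest on MO5, at 6.40, where the other 4 maternal obese livers read 5.92 to 6.01. What set these arrays apart was not tested.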

How the results depend on the processing

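EPCAM, the 1 member probe tested, was called in no comparison under any alternative run. Its maternal obese minus control difference (0.20) was -0.012 with median scaling and ranged from -0.14 (without MO3) to 0.55 over arrays left out, with -0.06 without CON2 and -0.02 without CON5. Its slide difference was 0.23 in the deposited log2 values, 0.13 with array weights, and -1.09 to 1.04 over arrays left out, with 0.57 without CON4. Its sex difference was 0.10 in maternal obese arrays only and -0.95 to -0.24 over arrays left out, and its interaction 0.60 to 2.09. The causes were not tested. Member probes measured numbered 3 at a detection p under 0.1 and 4 when detection on 1 array sufficed.

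Probes called between conditions (0) numbered 1 in the deposited values, 9 with array weights, 1 with slide and 1 with sex as a covariate, and 0 to 2 over arrays left out (2 without CON5). Slide calls (1185) numbered 684 with detection on all 11 arrays, 517 in controls only, 193 with condition and sex, 0 in male controls only, and 90 to 1248 over arrays left out. They numbered 4118 in the deposited values (3837 higher, 281 lower, against 370 and 815), whose median difference over all probes was 0.36, against 0.09. Sex calls (4) numbered 2 with median scaling, 0 with detection on all 11 arrays, 1 with no filter, and 3 to 5 over arrays left out. Interaction calls (0) numbered 1 in the deposited values and 0 to 20 over arrays left out (20 without CON4).

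Of 697 values of 27 list genes under 26 settings, 47 changed sign and 0 became called. With median scaling, where the median over all probes was -0.14, FOXA1 was -0.16, H19 -0.16, IGDCC4 -0.11 and ITGB5 -0.18. In the deposited values FOXA1 was -0.039, H19 -0.052 and ITGB5 -0.059, and with array weights H19 was -0.028. With slide as a covariate, and equally in slide 2 only, LAMB3 was -0.29, PERP 0.23, TM4SF4 0.23, TGFBR2 0.15, TEAD2 0.45 and ITGAV 0.052. With slide as a random block LAMB3 was -0.057 and TEAD2 0.038. With slide and sex NOTCH1 was -0.12, LAMB3 -0.28, ITGA6 0.053, PERP 0.25, TM4SF4 0.00080, IGF2BP1 -0.038, KRT3 -0.054, TJP1 0.023, TGFBR2 0.10, TEAD2 0.61 and ITGAV 0.17. In males of slide 2 NOTCH1 was -0.12, LAMB3 -0.32, ITGA6 0.030, PERP 0.29, TM4SF4 0.29, TGFBR2 0.062 and TEAD2 0.59. Over arrays left out, H19 ranged from -0.034 to 0.051 (below 0 without CON6, MO2 or MO5), FOXA1 from -0.026 to 0.19 (below 0 without MO1 or MO4) and ITGB5 from -0.015 to 0.12 (below 0 without MO4 or MO5).

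No paired analysis was possible because the labels number no replicates, and the numbers in the array names used here were given in order within each group and pair nothing. The planned correlations between members were not run, since no pair had both genes measured. Signals of the 8 unmeasured genes lie at background, which bounds nothing about their transcripts.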
